A study of Mus musculus with 12 samples.

Results

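Cholesterol synthesis is represented here by 8 genes: Hmgcs1, Idi1, Fdps, Fdft1, Sqle, Cyp51 and Dhcr7, which encode enzymes of the pathway, and Srebf2, which encodes its main transcriptional regulator. The genes were chosen by name, with no measured value in the rule but with earlier results of these data known. Every probe set annotated to 1 of them was taken from mouse spleen arrays. All 8 were measured, among 12393 genes with a probe set of their own. The theme is cholesterol synthesis and LDL uptake, but none of the 8 genes encodes a lipoprotein receptor.

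Cells make cholesterol from acetyl-CoA through mevalonate, isoprenoid intermediates, squalene and lanosterol. SREBP-2, the product of Srebf2, is held in the endoplasmic reticulum membrane while sterol is plentiful; when sterol falls it is cut free and switches on the genes of the pathway and of LDL uptake together. In macrophages and lymphocytes the same pathway also feeds membrane growth, protein prenylation and the making of oxysterols, which signal in immunity.

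Total spleen RNA from 12 mice was hybridised to Affymetrix MOE430A 2.0 arrays, 1 array for each mouse and 3 mice for each of 4 groups. The groups were Dusp1 knockout mice (labelled DUSP1-/-) 6 h after an intraperitoneal injection of E. coli lipopolysaccharide (LPS, the endotoxin of the bacterial outer membrane) at 10 µg per g of body weight, Dusp1 knockout control mice, wild-type mice (DUSP1+/+) 6 h after the same injection, and wild-type control mice. Control mice had no treatment, so an effect of the injection itself cannot be told apart from that of LPS. Dusp1 encodes a phosphatase that turns off MAP kinases, and the series asks how it controls the answer to LPS; strain, sex, age and the make of the deleted allele are not given in the labels. Values are intensities that the series describes as made with RMA; they are linear whole numbers, and their array medians differ (47 to 64), which the quantile step of a standard RMA would make equal, so the exact normalization is not known. An array is written by its genotype, treatment and replicate number.

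In bulk spleen, fewer cells of a type and less RNA per cell cannot be told apart. A list of lymphoid and macrophage genes of the spleen held bright genes on every array, for example the B cell gene Cd79a at 730 to 4499. Tlx1, of the same list, read 27, 27 and 26 in knockout LPS spleen, below the 40th percentile of mean intensity (30.49). The list moved with LPS too. Of 12 measured markers, 5 were lower and none higher in knockout LPS against knockout control spleen, where 9.71% of all genes were lower. In wild-type LPS against wild-type control spleen 4 were lower and none higher, where 4.16% of all genes were lower. Spic, of the same list, went the other way without passing, at 1.09 in knockout and 0.61 in wild-type spleen on the log2 scale. Some arrays stood apart within their group. Transcripts of the pancreas, a neighbour of the spleen, had a mean log2 level (8 markers) of 11.9 in knockout control 1, 9.0 in knockout control 3 and 12.9 in wild-type control 1, against 4.27 to 5.70 on the other 9 arrays. Liver transcripts (12 markers) averaged 6.56 to 8.82 in knockout LPS, 4.53 to 9.51 in knockout control, 6.05 to 7.96 in wild-type LPS and 4.51 to 7.46 in wild-type control arrays, and erythroid precursor transcripts (12 markers) were highest in knockout control 1 (11.02) and wild-type control 2 (9.85), against 5.97 to 8.18 elsewhere. Lung transcripts (7 markers) averaged 6.97 and 6.21 in knockout LPS 1 and 3 and 7.06 and 6.75 in knockout control 2 and 3, against 4.36 to 5.45 on the other 8 arrays, so that the 4 lung-high arrays were all labelled knockout. The Dusp1 probe set gave no check of the genotype labels: it read 4963, 2948 and 4996 in knockout LPS against 2248, 2142 and 2116 in wild-type LPS spleen, and 677, 1528 and 1443 in knockout control against 479, 1354 and 627 in wild-type control spleen, higher on average under both knockout labels. The labels do not place this probe set relative to the deletion, so the genotypes stand as labelled.

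At 6 h after LPS, 2 of the 8 genes fell in knockout spleen: Dhcr7, the reductase that makes cholesterol in the last step of the pathway, 3.58-fold, and Fdps, the synthase of farnesyl diphosphate, 2.18-fold. None rose. Of all genes, 9.71% fell and 5.54% rose in the same comparison. In wild-type spleen none of the 8 passed the test in either direction, where 4.16% of all genes fell and 3.93% rose. The averaged LPS response of both genotypes again held falls of Dhcr7 and Fdps, where 14.3% of all genes fell. No direct comparison between genotypes called any of the 8. Differences below are log2 differences with the limma standard error, and p-values are adjusted by Benjamini-Hochberg over 22626 probe sets with a threshold of 0.05. Each gene is represented by 1 probe set, the brightest among those not ending in _x_at, a suffix that marks probes which can also bind other transcripts; for Fdft1 this passes over a brighter set, described with that gene.

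**Figure D1:**
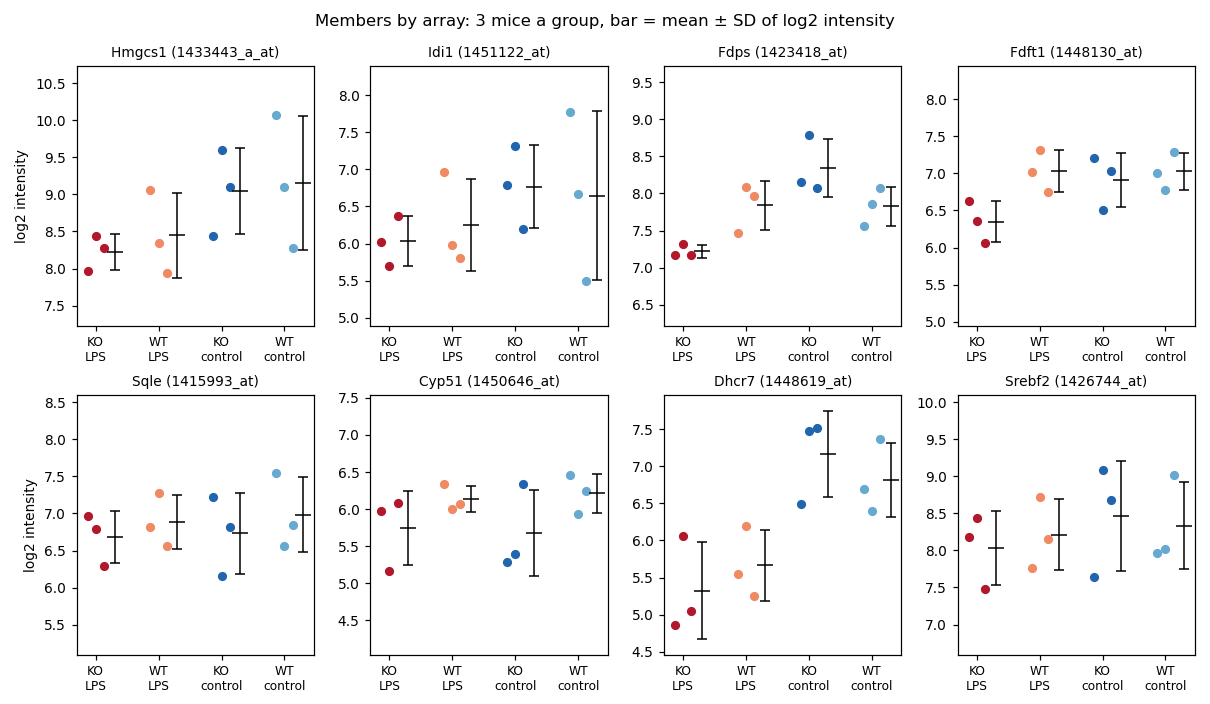
Log2 intensity of the 8 genes (1 probe set each) on each of the 12 arrays, by group; points are mice and bars the group mean ± SD (n = 3). Panels are centred on their own gene and span log2 axes of equal length. Dhcr7 and Fdps in knockout LPS arrays lie below every knockout control array, and the other 6 genes overlap between these groups.

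The regulator comes first. Srebf2, which encodes SREBP-2, read 290, 348 and 178 in knockout LPS against 200, 541 and 411 in knockout control spleen. In wild-type spleen it read 217, 422 and 286 after LPS against 250, 260 and 519 in controls. The groups overlapped throughout, with differences of -0.44 ± 0.43 in knockout (limma adjusted p = 0.613) and -0.12 ± 0.43 in wild-type spleen (limma adjusted p = 0.934). Its transcript level does not show how much of the protein was cut and active, which was not measured.

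Hmgcs1 encodes the cytosolic HMG-CoA synthase, which makes HMG-CoA, the precursor of mevalonate. It read 250, 348 and 310 in knockout LPS against 348, 776 and 551 in knockout control spleen, and 535, 325 and 245 in wild-type LPS against 1080, 550 and 309 in wild-type control spleen. Both LPS groups were lower on average, by 0.82 ± 0.45 and 0.70 ± 0.45 on the log2 scale, but they overlapped the controls, whose own spread was wide, and neither difference passed (limma adjusted p = 0.303 and 0.484).

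Idi1 encodes the isomerase that gives the isoprenoid units their reactive form. It read 65, 52 and 83 in knockout LPS against 111, 159 and 73 in knockout control spleen, and 125, 63 and 56 in wild-type LPS against 219, 102 and 45 in wild-type control spleen. Neither difference passed (-0.73 ± 0.53 in knockout and -0.40 ± 0.53 in wild-type spleen, limma adjusted p = 0.457 and 0.797). Its wild-type controls had the widest spread among the 4 groups of the 8 genes, with an SD of 1.14 on the log2 scale (n = 3).

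Fdps joins those units into farnesyl diphosphate, from which squalene and the lipid anchors of prenylated proteins are both made. It read 144, 159 and 144 in knockout LPS against 286, 444 and 269 in knockout control spleen, so every LPS array lay below every control array. The fall was -1.12 ± 0.24 (95% interval -1.65 to -0.60, limma adjusted p = 0.0112). In wild-type spleen it read 177, 271 and 251 after LPS against 188, 231 and 269 in controls, with a difference of 0.01 ± 0.24 (95% interval -0.51 to 0.54, limma adjusted p = 0.998). The test of the difference between these 2 responses gave -1.14 ± 0.34, with an unadjusted p of 0.00618 and a limma adjusted p of 0.616, so the responses were not shown to differ. Within groups Fdps moved with the liver list (r = 0.69 over 12 arrays after taking off group means) and against the pancreas list (r = -0.64). With the liver list as a covariate the knockout fall was -1.23 (limma adjusted p = 0.00393). Without the 3 pancreas-high arrays it was -1.58, but that value has knockout control 2, the highest Fdps reading (444), as its only control.

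Fdft1 encodes squalene synthase, the first enzyme that works for sterols alone. The set that represents it read 99, 82 and 67 in knockout LPS against 148, 91 and 131 in knockout control spleen, a difference of -0.57 ± 0.24 that did not pass (limma adjusted p = 0.172). Its brightest set (mean intensity 129.4, against 113.9), passed over for its _x_at suffix, read 88, 82 and 79 in knockout LPS against 168, 117 and 205 in knockout control spleen, without overlap. That difference passed (-0.94 ± 0.22, limma adjusted p = 0.0193), so that counting this set instead would give 3 of the 8 genes as lower. The call was lost under 11 of 28 alternatives. Among these were the 3 rescalings of the arrays (adjusted p = 0.112 to 0.121), leaving out knockout LPS 1 or 3 or knockout control 3 (0.0560, 0.0700 and 0.0639), and the pancreas list as a covariate (-0.68, 0.0670). Without the 3 pancreas-high arrays the difference was -0.50, with knockout control 2 (117) as its only control. In wild-type spleen the sets differed by 0.01 ± 0.24 and 0.00 ± 0.22 between LPS and control.

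Sqle encodes squalene epoxidase, a control point late in the pathway. It read 125, 111 and 78 in knockout LPS against 149, 71 and 113 in knockout control spleen, and 113, 155 and 94 in wild-type LPS against 186, 94 and 115 in wild-type control spleen. Differences were -0.05 ± 0.34 in knockout and -0.10 ± 0.34 in wild-type spleen (limma adjusted p = 0.958 and 0.934), with overlap in both. The 95% interval in knockout spleen, -0.80 to 0.70, leaves room for a change of either sign.

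Cyp51 encodes the demethylase that trims lanosterol. It read 63, 36 and 68 in knockout LPS against 39, 42 and 81 in knockout control spleen, and 81, 64 and 67 in wild-type LPS against 88, 61 and 76 in wild-type control spleen. The differences were 0.07 ± 0.32 and -0.08 ± 0.32 (limma adjusted p = 0.925 and 0.942), and the groups overlapped.

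Dhcr7 encodes 7-dehydrocholesterol reductase, which stands where 7-dehydrocholesterol is turned into cholesterol. It read 29, 67 and 33 in knockout LPS against 90, 179 and 183 in knockout control spleen, with no overlap. The fall was -1.84 ± 0.41 (95% interval -2.75 to -0.93, limma adjusted p = 0.0147). In wild-type spleen it read 47, 73 and 38 after LPS against 104, 84 and 165 in controls, again with no overlap, but the difference of -1.16 ± 0.41 did not pass (limma adjusted p = 0.138). The 2 responses differed by -0.69 ± 0.58 (limma adjusted p = 1.00), so neither was shown to be the larger. The call in knockout spleen was lost without knockout LPS 1 or 3 or knockout control 3 (adjusted p = 0.0691, 0.0602 and 0.0538), with the 2 knockout groups fitted alone (0.0567) and without the 4 arrays highest in liver transcripts (0.133), while the difference itself stayed between -2.21 and -1.61. That last setting leaves 1 knockout LPS array, and it also ended the call of Fdps (-0.95, adjusted p = 0.248).

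**Figure D2:**
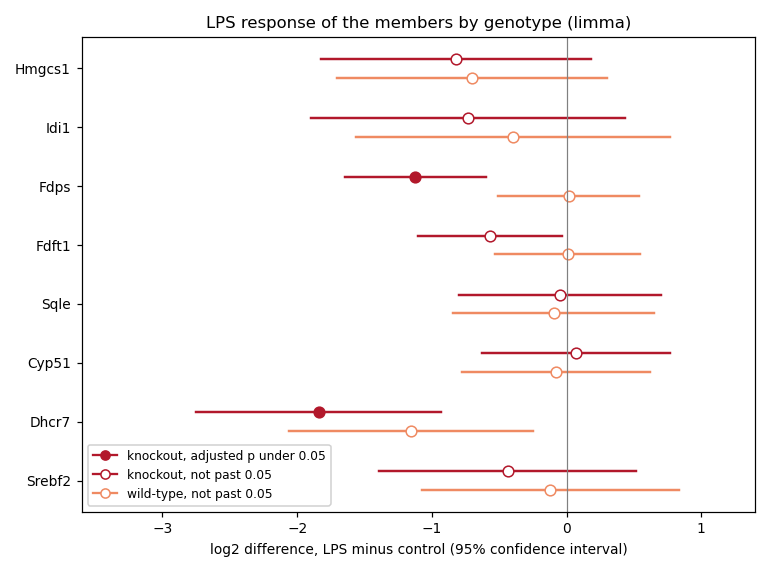
Log2 difference between LPS and control spleen for the 8 genes in knockout (dark red) and wild-type mice (orange), with limma 95% confidence intervals; filled points passed an adjusted p of 0.05. Dhcr7 and Fdps in knockout spleen are the filled points, at -1.84 and -1.12.

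Set against all genes, the counts were as follows. In knockout spleen 2 of the 8 genes fell and 0 rose, where 9.71% of all genes fell and 5.54% rose. Groups did not overlap, with LPS lower, for 2 of the 8, against 17.6% of all genes, and 7 of 8 differences lay below 0, against 56.1% of all genes. The median of the 8 was -0.65 and that of all genes -0.06. In wild-type spleen 0 of 8 passed in either direction, against 4.16% of all genes lower and 3.93% higher. Of the 8, 1 had a limma unadjusted p under 0.05, against 2647 of all 12393 genes. There 1 of 8 did not overlap with LPS lower, against 14.8% of all genes, 6 of 8 lay below 0, against 52.8%, and the medians were -0.11 for the 8 and -0.03 for all genes. The array medians were unequal, and shifting every array to 1 median moved the median of all probe sets by 0.22 in knockout and 0.12 in wild-type spleen. Over all genes that shift turned 1203 falls and 686 rises into 759 and 931 in knockout spleen, 515 and 487 into 414 and 607 in wild-type spleen, and 1777 and 1056 into 1247 and 1486 in the average of both. After that shift 6 of 8 lay below 0 in knockout spleen, with a median of -0.43, and 4 of 8 in wild-type spleen, with a median of 0.01; Sqle was above 0 in knockout spleen (0.17).

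Averaged over both genotypes, LPS lowered Dhcr7 by 1.50 ± 0.29 on the log2 scale, 2.83-fold (limma adjusted p = 0.00430), and Fdps by 0.55 ± 0.17, 1.47-fold (limma adjusted p = 0.0398). These were 2 falls and 0 rises among 8, against 14.3% of all genes lower and 8.52% higher. All 8 averages lay below 0, the nearest being Cyp51 at 0.00 ± 0.22, and their median was -0.42 against -0.04 for all genes. After the shift to 1 median, 6 of 8 lay below 0, with Sqle and Cyp51 above it. The fall of Dhcr7 passed under all 28 alternatives (adjusted p = 0.00171 to 0.0308). The fall of Fdps was lost under 17 of 28, among them a shift to 1 median (-0.39, adjusted p = 0.108) and leaving out 1 of the 3 knockout LPS arrays, knockout control 2, wild-type LPS 1 or 3, or wild-type control 2 or 3 (adjusted p = 0.0570 to 0.0887); it averages a response of -1.12 in knockout and of 0.01 in wild-type spleen. Hmgcs1 averaged -0.76 ± 0.32 and did not pass (limma adjusted p = 0.130), and without wild-type control 3, its lowest control array, it did.

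After LPS, all 8 genes were lower on average in knockout than in wild-type spleen, by 0.18 to 0.68 on the log2 scale. None passed the test. A limma unadjusted p under 0.05 was found for 2 of 8, against 1269 of all 12393 genes. Among all genes 46.9% lay below 0, and 0.363% passed in either direction. The median of the 8 was -0.28, against 0.02 for all genes. All 8 lay below 0 under each of the 3 rescalings, but 7 did with array weights or when knockout LPS 3 or wild-type LPS 2 was left out, and 6 did when wild-type LPS 1 or the 4 liver-high arrays were. Without wild-type LPS 3 the median was -0.46. Marker lists moved in the same comparison without any gene passing: 9 of 9 proliferation and 6 of 7 neutrophil markers lay below 0 (medians -0.44 and -0.47), and 12 of 12 liver and 7 of 7 lung markers above it (medians 1.01 and 1.05). With the liver list as a covariate all 8 still lay below 0, and the part of the other 3 lists was not tested. Fdft1 (99, 82 and 67 in knockout LPS against 130, 160 and 108 in wild-type LPS spleen) and Fdps (144, 159 and 144 against 177, 271 and 251) did not overlap, 2 of 8 where 9.6% of all genes were lower without overlap. Their differences were -0.68 ± 0.24 (limma adjusted p = 0.391) and -0.62 ± 0.24 (limma adjusted p = 0.446). The brightest set of Fdft1, left aside for its _x_at suffix, was also lower without overlap and did not pass (-0.82 ± 0.22, limma adjusted p = 0.214). Array quality weights, which also raised the number of genes called from 45 to 1280, gave the only call among 29 alternatives, for Fdps (-0.78, adjusted p = 0.0101; the brightest set of Fdft1 passed too, 0.0104). The other 6 overlapped, with Dhcr7 at -0.34 ± 0.41, Cyp51 at -0.39 ± 0.32, Hmgcs1 at -0.22 ± 0.45, Idi1 at -0.22 ± 0.53, Sqle at -0.20 ± 0.34 and Srebf2 at -0.18 ± 0.43. The 8 genes were read on the same 6 arrays, so their common sign is 1 pattern and not 8 results.

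In untreated mice, no gene of the 8 passed the test between genotypes, and all overlapped on their representing sets. Fdps was the highest in knockout relative to wild-type spleen (0.52 ± 0.24, limma adjusted p = 1.00, unadjusted p = 0.0528) and Cyp51 the lowest (-0.54 ± 0.32, limma adjusted p = 1.00). The median of the 8 was 0.01, with 4 of 8 below 0. The comparison called 0% of all genes with limma, and 176 of 12393 had an unadjusted p under 0.05. The difference of LPS responses between genotypes likewise called 0% of all genes, with 800 of 12393 at an unadjusted p under 0.05, of which Fdps was 1. The brightest set of Fdft1, left out of these counts for its _x_at suffix, was at -0.94 ± 0.31 (limma unadjusted p = 0.0123, adjusted p = 0.729). The median of the 8 for the difference of responses was -0.33, against -0.05 for all genes, and 6 of 8 lay below 0. Single arrays moved these values: the median was -0.15 without knockout control 2 and -0.57 without wild-type control 1, and 4 of 8 lay below 0 without wild-type LPS 1 or wild-type control 3. The mean of all probe sets also gave 4 of 8, with a median of -0.12. Because the knockout LPS arrays enter both this difference and the genotype comparison after LPS, the 2 values of a gene share their error.

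The 8 genes have 19 probe sets, 13 of them above the 40th percentile of mean intensity (30.49), and the sets of a gene did not always move alike. The brightest set of Hmgcs1 fell short of a call at -0.82 in knockout spleen, while its other 3 sets, all above that percentile, read 0.05 ± 0.24, 0.05 ± 0.28 and -0.07 ± 0.32. In wild-type spleen those 3 were at -0.20, -0.24 and -0.10, against -0.70 for the brightest. Their correlation with it over 12 arrays was 0.53 to 0.56. The first 2 of the 3 correlated with each other at 0.99, so they are close to 1 signal, and the second ends in _x_at. The other set of Srebf2 followed the brightest (r = 0.86) and differed by -0.25 ± 0.28 in knockout spleen. The other sets of Fdps, Idi1 and Cyp51 and 2 of those of Fdft1 were dim. Their mean intensities were 9.68 to 23.3, below the 40th percentile. Averaging in the other Fdps set, the dimmest at 9.68, shrank the Fdps difference in knockout spleen to -0.54 and ended its call (limma adjusted p = 0.0807). In controls, where the representing sets overlapped, 3 other sets were lower in knockout spleen at an unadjusted p under 0.05: 2 of Hmgcs1 (-0.75 ± 0.28 without overlap and -0.60 ± 0.24, unadjusted p = 0.0223 and 0.0274) and a dim one of Cyp51 (-0.64 ± 0.24 without overlap, 0.0213), all with a limma adjusted p of 1.00. These 2 Hmgcs1 sets were the pair that correlated at 0.99. The same Cyp51 set was also lower after LPS in wild-type spleen without overlap, a difference that did not pass (-0.69 ± 0.24, limma adjusted p = 0.128). Dhcr7 and Sqle had 1 set each.

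**Figure D3:**
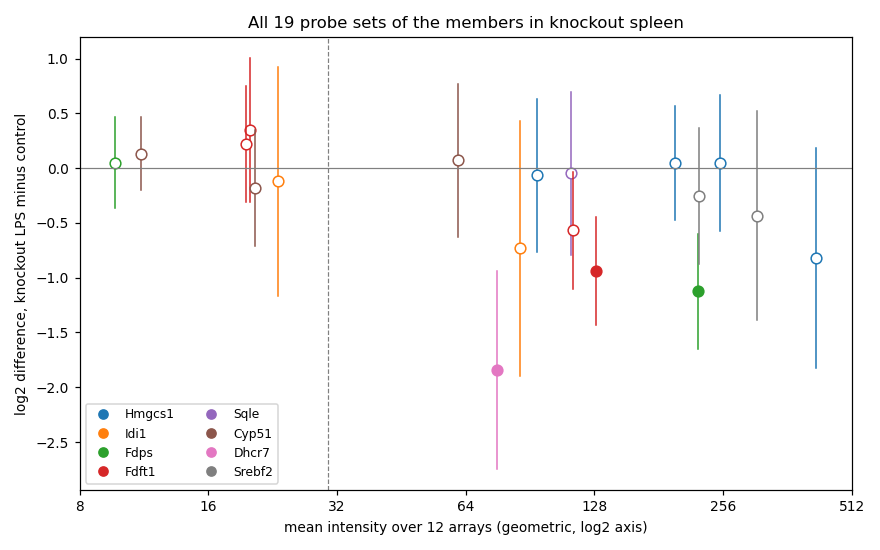
Mean intensity over 12 arrays (log2 axis) and log2 difference between LPS and control in knockout spleen for all 19 probe sets of the 8 genes, with limma 95% intervals; the dashed line is the 40th percentile of all probe sets (30.49) and filled points passed an adjusted p of 0.05. The filled points are Dhcr7, Fdps and the brightest set of Fdft1, which ends in _x_at, and the dim sets left of the line lie between -0.18 and 0.35.

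The promoter of Dhcr7 is shown because its transcript fell with LPS, and that of Hmgcs1 because it holds the sterol response motif of the pathway. SREBP proteins bind sterol regulatory elements, often beside NF-Y and Sp1 boxes. Windows of 300 bases, from 250 before to 50 after a RefSeq start site on GRCm38.p6, were matched for 5 of the 8 genes (Hmgcs1, Idi1, Cyp51, Srebf2 and, with 3 start sites, Dhcr7). Both strands were searched for TCACNCCAC (the core of the sterol regulatory element), CCAAT (NF-Y) and GGGCGG (Sp1). Capitals below mark the SREBP core and NF-Y boxes in either orientation, and each window is printed 5′ to 3′ on the + strand.
Dhcr7 start site 1, chr7:143822917-143823216: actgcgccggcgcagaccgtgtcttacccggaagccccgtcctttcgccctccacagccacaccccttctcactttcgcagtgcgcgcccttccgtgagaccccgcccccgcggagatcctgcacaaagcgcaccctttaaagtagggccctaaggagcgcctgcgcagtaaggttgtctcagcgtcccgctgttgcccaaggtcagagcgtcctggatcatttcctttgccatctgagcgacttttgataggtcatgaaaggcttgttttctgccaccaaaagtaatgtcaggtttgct
Dhcr7 start site 3, chr7:143829964-143830263: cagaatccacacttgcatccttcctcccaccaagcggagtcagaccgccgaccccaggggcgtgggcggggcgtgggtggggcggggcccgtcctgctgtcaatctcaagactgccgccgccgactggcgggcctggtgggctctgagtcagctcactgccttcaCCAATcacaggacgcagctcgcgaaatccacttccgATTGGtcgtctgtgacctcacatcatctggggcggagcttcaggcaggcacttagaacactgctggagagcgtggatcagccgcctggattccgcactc
Hmgcs1, chr13:119690101-119690400: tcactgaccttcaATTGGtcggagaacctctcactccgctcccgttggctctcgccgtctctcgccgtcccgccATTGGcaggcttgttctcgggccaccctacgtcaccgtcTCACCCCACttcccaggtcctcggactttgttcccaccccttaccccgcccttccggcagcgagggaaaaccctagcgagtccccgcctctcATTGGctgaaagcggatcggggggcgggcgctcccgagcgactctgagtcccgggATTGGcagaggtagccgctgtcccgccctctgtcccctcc

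The SREBP core was found only in the Hmgcs1 window among these 5 genes, 137 bases before the start site, and in 1.24% of 32817 promoter windows of the genome. The Hmgcs1 window also held 4 NF-Y boxes and 3 Sp1 boxes. The third Dhcr7 start site had 2 NF-Y boxes, 85 and 49 bases before it, and 3 Sp1 boxes, while its first start site had 1 Sp1 box and no NF-Y box, and the middle one had none of the 3 motifs. NF-Y boxes were in 37.4% and Sp1 boxes in 35.6% of all windows. Idi1 had 2 NF-Y boxes, Cyp51 and Srebf2 1 each. Which Dhcr7 start the spleen uses was not measured, other spellings of the sterol element were not searched, and a match is no evidence of binding.

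The 8 genes did not form a tight group across arrays. Of their 28 pairs, 22 had a Pearson correlation above 0 over the 12 arrays (median 0.17, from -0.31 to 0.84), and after the 4 group means were taken off 14 of 28 did (median 0.01, from -0.52 to 0.82). These are descriptions only, since all genes read on an array share its overall signal and its tissue makeup. The mean log2 level of the 8 was 6.72, 6.79 and 6.60 in knockout LPS against 7.16, 7.54 and 7.47 in knockout control spleen, and 7.12, 7.24 and 6.81 in wild-type LPS against 7.64, 7.16 and 7.32 in wild-type control spleen. Knockout LPS arrays were thus the 3 lowest of the 12, and the wild-type groups overlapped. Within groups this mean ran against the erythroid (r = -0.57), neutrophil (r = -0.58) and proliferation lists (r = -0.48) and with the steroid-cell (r = 0.52) and lymphoid lists (r = 0.45), over 12 arrays after group means were taken off. With the erythroid list as a covariate Dhcr7 differed by -1.91 and Fdps by -1.12 in knockout spleen (limma adjusted p = 0.0102 and 0.0141), and with the pancreas list Dhcr7 differed by -2.12 (limma adjusted p = 0.0160). The part of the neutrophil, proliferation, steroid-cell and lymphoid lists was not tested.

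**Figure D4:**
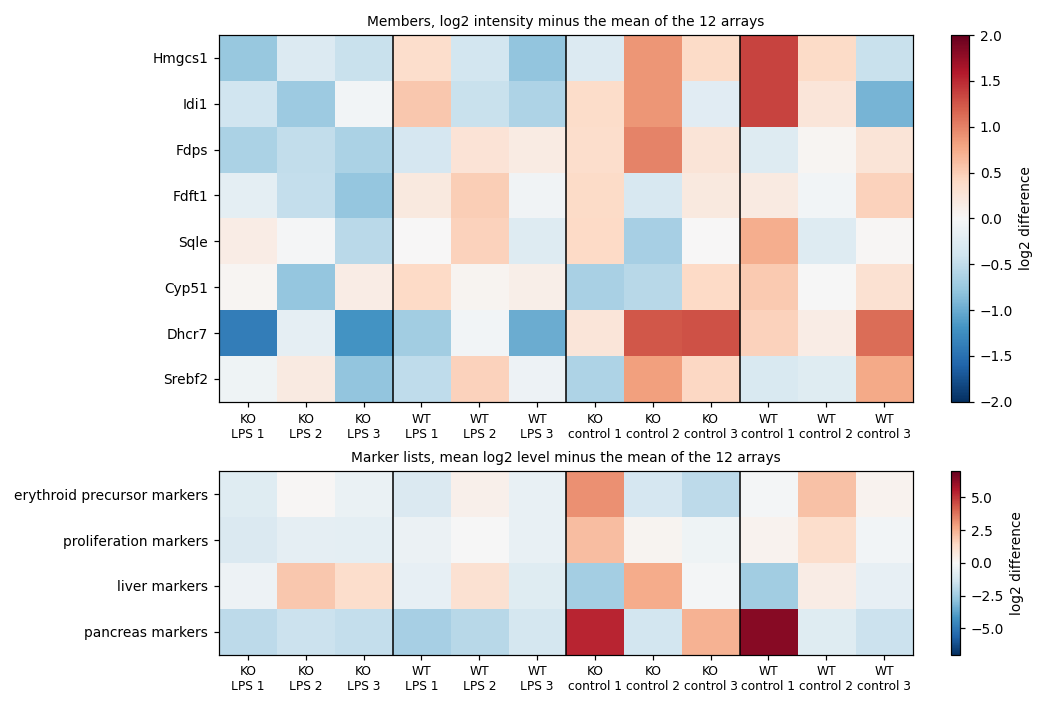
Top, log2 intensity of the 8 genes on each array minus the gene's mean over the 12 arrays; bottom, mean log2 level of 4 marker lists on each array, centred likewise. Colour gives the log2 difference (red above, blue below the mean), columns are arrays from knockout LPS to wild-type control. The 3 lowest values of Fdps are the knockout LPS arrays, Dhcr7 is below its mean on all LPS arrays, and the pancreas list is far above its mean in knockout control 1 and wild-type control 1.

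Outside the listed genes, the transcripts whose pattern over the 12 arrays was most like the mean of the 8 were Kdr (a VEGF receptor, r = 0.945), Fam50a (0.943), Clasp1 (0.936), Cd5 (a T cell surface protein, 0.934), Nprl2 (0.929) and Tmem19 (0.925). After group means were taken off they were Sbf2 (r = 0.91), Ereg, Slc47a1, Tll1, Clec4g and Asb5 (0.88 to 0.89), none shared with the first 6. Of these, Ereg, Slc47a1, Tll1 and Asb5 had mean intensities of 8.47 to 10.97, near the lowest values of the arrays. The highest of so many correlations over 12 arrays are high by selection.

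Of 15 other enzymes of the pathway, 12 were analysed here, and in knockout spleen 4 fell and 0 rose after LPS, where 9.71% of all genes fell. They were Msmo1 (the C-4 sterol oxidase, -1.27 ± 0.36, limma adjusted p = 0.0418), Lss (lanosterol synthase, -0.97 ± 0.20, 0.0113), Lbr (a C-14 sterol reductase that is also the lamin B receptor, -0.96 ± 0.26, 0.0370) and Nsdhl (-0.58 ± 0.16, 0.0414). In wild-type spleen 0 of 12 passed. A limma unadjusted p under 0.05 was found for 1 of 12, against 2647 of all 12393 genes. Lbr was at -0.94 ± 0.26 (limma adjusted p = 0.0616) and Msmo1 at -0.16 ± 0.36. The medians of the 12 were -0.63 in knockout and -0.27 in wild-type spleen. Sc5d, Mvd and Ebp were next by the averaged response, at -0.72, -0.53 and -0.49, and did not pass. The knockout count was 4 as given, but 0 after a shift of arrays to 1 median, 1 after quantile normalization, 2 after cyclic loess and 0 without the 4 arrays highest in liver transcripts. It was 1 without knockout LPS 3, knockout control 2 or wild-type LPS 2 or 3, and 2 without knockout LPS 1 or 2 or wild-type LPS 1. Lss was the firmest, lost under 4 of 29 alternatives, against 17 for Msmo1 and Lbr and 22 for Nsdhl. Averaged over genotypes, 3 of 12 fell (Lbr, Lss and Nsdhl) and 0 rose, where 14.3% of all genes fell. After the shift to 1 median, 1 of the 12 fell.

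Per array, Msmo1 read 51, 25 and 37 in knockout LPS against 61, 150 and 72 in knockout control spleen, and 95, 58 and 71 in wild-type LPS against 84, 94 and 69 in wild-type control spleen. After LPS its knockout arrays lay below all wild-type ones, with a difference that did not pass (-1.02 ± 0.36, limma adjusted p = 0.385). Lbr read 749, 621 and 799 in knockout LPS against 2075, 1220 and 1079 in knockout control spleen, and 771, 689 and 776 in wild-type LPS against 1066, 1798 and 1521 in wild-type control spleen. Every LPS array lay below every control array in both genotypes, and after LPS the genotypes overlapped (difference -0.05 ± 0.26, 95% interval -0.63 to 0.53).

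**Figure D5:**
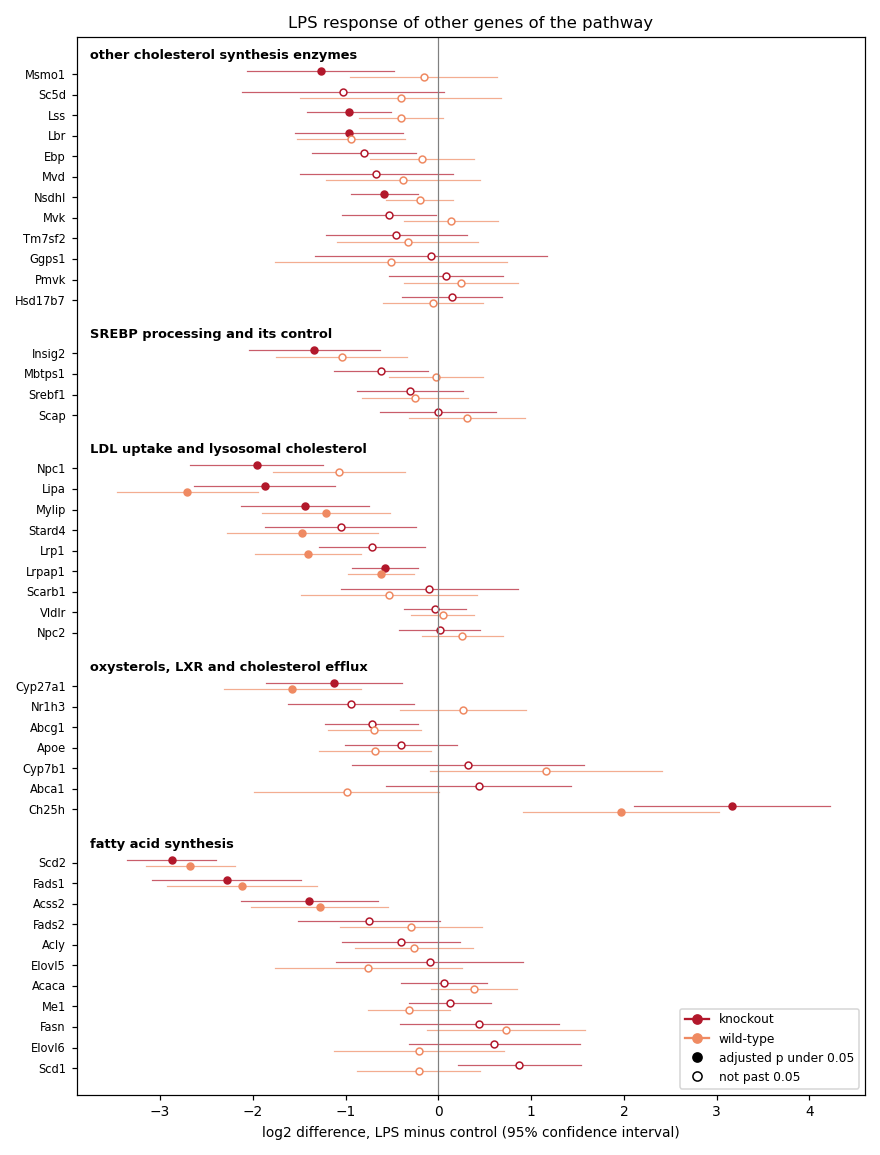
Log2 difference between LPS and control spleen for 43 further genes in 5 lists, in knockout (dark red) and wild-type mice (orange), with limma 95% intervals; filled points passed an adjusted p of 0.05. Most filled points lie below 0, and Ch25h is the filled gene above 0 in both genotypes.

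Of the genes that control SREBP cleavage, 4 of 6 listed were analysed here. Insig2, whose protein retains the SREBP escort in the endoplasmic reticulum, fell in knockout spleen (-1.34 ± 0.32, limma adjusted p = 0.0202) and was at -1.04 ± 0.32 in wild-type spleen (limma adjusted p = 0.0848), with no overlap in either. Its intensities were 67, 44 and 70 in knockout LPS against 128, 193 and 135 in knockout control, and 143, 62 and 91 in wild-type LPS against 198, 234 and 152 in wild-type control spleen. Srebf1, the gene of SREBP-1, was at -0.31 ± 0.26 and -0.25 ± 0.26, Mbtps1, the site-1 protease, at -0.62 ± 0.23 and -0.02 ± 0.23, and Scap, the escort, at 0.00 ± 0.28 and 0.31 ± 0.28 in knockout and wild-type spleen, and none passed.

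Lipoprotein uptake and lysosomal cholesterol had falls in both genotypes. Of 13 listed, 9 were analysed here. In knockout spleen 4 fell and 0 rose, where 9.71% of all genes fell. In wild-type spleen 5 fell and 0 rose, where 4.16% of all genes fell. Lipa, the acid lipase that frees cholesterol from lipoprotein esters, read 148, 200 and 209 in knockout LPS against 856, 450 and 787 in knockout control, and 149, 120 and 90 in wild-type LPS against 1241, 647 and 559 in wild-type control spleen. It fell by 1.87 ± 0.34 in knockout (limma adjusted p = 0.00559) and by 2.71 ± 0.34 in wild-type spleen (limma adjusted p = 0.00138). Npc1, which exports cholesterol from lysosomes, read 23, 37 and 19 in knockout LPS against 67, 127 and 112 in knockout control, and 60, 47 and 43 in wild-type LPS against 76, 109 and 136 in wild-type control spleen. It fell by 1.96 ± 0.32 in knockout spleen (limma adjusted p = 0.00320) and was at -1.07 ± 0.32 in wild-type spleen (limma adjusted p = 0.0811). Mylip, a ubiquitin ligase that limits lipoprotein uptake, fell by 1.44 ± 0.31 and 1.21 ± 0.31 in knockout and wild-type spleen (limma adjusted p = 0.0128 and 0.0444), and Lrpap1, a chaperone of lipoprotein receptors, by 0.58 ± 0.16 and 0.62 ± 0.16 (0.0383 and 0.0445). Of 29 alternatives, the Lrpap1 calls were lost under 21 in knockout and 23 in wild-type spleen and the wild-type call of Mylip under 15, whereas the knockout calls of Lipa and Npc1 were lost under 1 each. The Lrpap1 calls come from its brightest set, and its other sets, all above the 40th percentile, moved unevenly. Their geometric group means in knockouts were 107, 165 and 108 after LPS, where controls had 222, 156 and 122. Wild-type mice had 148, 143 and 94 after LPS, where controls had 190, 143 and 95. Only the first of these sets was lower without overlap in knockout spleen (107, 94 and 123 after LPS against 180, 310 and 197). In wild-type spleen its groups overlapped (178, 120 and 152 after LPS against 164, 190 and 220).

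The scavenging receptor gene Lrp1 read 319, 542 and 266 in knockout LPS against 513, 591 and 673 in knockout control, and 203, 194 and 199 in wild-type LPS against 535, 420 and 647 in wild-type control spleen. It fell in wild-type spleen (-1.40 ± 0.26, limma adjusted p = 0.00948) and was at -0.72 ± 0.26 in knockout spleen (limma adjusted p = 0.104). Stard4, a sterol carrier gene, fell in wild-type spleen by 1.47 ± 0.37 (limma adjusted p = 0.0397, lost under 17 of 29 alternatives) and was at -1.05 ± 0.37 in knockout spleen (limma adjusted p = 0.0940). The difference of responses passed for no gene of the list. Scarb1, Npc2 and Vldlr did not pass, and Vldlr, at 10 to 13 on all arrays, lay near the lowest values. In the averaged response 6 of the 9 fell, where 14.3% of all genes fell. For Lipa, Npc1, Mylip and Lrp1 that call passed under all 28 alternatives, and for Lrpap1 and Stard4 it was lost under 2.

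Of 8 oxysterol and efflux genes listed, 7 were analysed here; in each genotype 1 rose, 1 fell and 5 did not pass, where 5.54% of all genes rose and 9.71% fell in knockout and 3.93% rose and 4.16% fell in wild-type spleen. Ch25h, the macrophage enzyme that makes 25-hydroxycholesterol, a sterol known to hold back SREBP processing, read 382, 404 and 312 in knockout LPS against 16, 74 and 56 in knockout control, and 175, 111 and 208 in wild-type LPS against 33, 42 and 49 in wild-type control spleen. It rose by 3.17 ± 0.48 in knockout (limma adjusted p = 0.00203) and by 1.96 ± 0.48 in wild-type spleen (limma adjusted p = 0.0347, lost under 12 of 29 alternatives). After LPS every knockout array lay above every wild-type array, with a difference that did not pass (1.19 ± 0.48, limma adjusted p = 0.481). Cyp27a1, the sterol 27-hydroxylase, fell by 1.13 ± 0.33 in knockout (limma adjusted p = 0.04997, just under the threshold and lost under 17 of 29 alternatives) and by 1.57 ± 0.33 in wild-type spleen (limma adjusted p = 0.0187). Of the efflux genes, Abcg1 was at -0.72 ± 0.23 in knockout and -0.69 ± 0.23 in wild-type spleen and fell in the average (-0.71 ± 0.16, limma adjusted p = 0.0104), while Abca1 was at 0.43 ± 0.45 and -0.99 ± 0.45 and Apoe at -0.40 ± 0.27 and -0.68 ± 0.27, none of them past the threshold. Nr1h3, which encodes the oxysterol receptor LXR alpha, was at -0.94 ± 0.31 in knockout and 0.26 ± 0.31 in wild-type spleen, and Cyp7b1, which degrades 25-hydroxycholesterol, at 0.32 ± 0.57 and 1.16 ± 0.57, also not past it.

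Fatty acid synthesis, which shares the SREBP system, had 11 measured genes, of which 3 fell and 0 rose in each genotype. Of all genes, 9.71% fell in knockout and 4.16% in wild-type spleen. Scd2, a stearoyl-CoA desaturase, read 38, 59 and 55 in knockout LPS against 321, 333 and 453 in knockout control, and 100, 74 and 73 in wild-type LPS against 519, 490 and 555 in wild-type control spleen. It fell by 2.87 ± 0.22 in knockout (limma adjusted p = 3.4e-05) and by 2.68 ± 0.22 in wild-type spleen (limma adjusted p = 9.3e-05), and both calls passed under all 29 alternatives. Fads1, the delta-5 desaturase, fell by 2.28 ± 0.37 and 2.12 ± 0.37 (limma adjusted p = 0.00273 and 0.00685), and Acss2, which makes acetyl-CoA from acetate, by 1.39 ± 0.33 and 1.28 ± 0.33 (0.0208 and 0.0464, the wild-type call lost under 21 of 29 alternatives). The other 8 did not pass; Fasn, fatty acid synthase, was at 0.44 ± 0.39 and 0.73 ± 0.39, Fads2 at -0.75 ± 0.35 and -0.29 ± 0.35, and Elovl5 at -0.09 ± 0.46 and -0.75 ± 0.46 in knockout and wild-type spleen.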

How the data were processed

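Spleen RNA of 12 mice in 4 groups of 3 was measured, and groups came from the sample titles. The deposited values are 1 intensity per probe set, made by the authors with RMA in the R affy package per the series' design text, although unequal array medians do not match its usual quantile step; tool versions are not given in the sources used here. All values were whole numbers, from 6 to 15228, so they are linear and rounded; array medians ran from 47 to 64. For arrays, precision is set by their number.

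Of 22690 probe sets 64 controls were left out. Intensities were log2-transformed, 4 group means were fitted with limma 3.58.1 in R 4.3.3 (lmFit, eBayes), and 6 contrasts were tested, two-sided, with Benjamini-Hochberg adjustment over 22626 probe sets. The code was tested on simulated data. A gene was represented by its brightest probe set naming it alone, sets ending in _x_at aside where there was another. Probe sets were named from GEO's platform annotation, in which 20380 name 1 gene, 691 several and 1555 none. Named genes were the 8 members, called genes of 5 fixed pathway lists, a few genes named whatever their values (Srebf1, Ch25h and Abca1 among them), and up to 3 more a list by averaged LPS response. Members and lists were chosen with earlier results of these data known. Alternatives changed the scaling, variance model, samples, low signals, covariates and probe set. Some listed genes are not reported here. Promoter sequences are RefSeq's (GRCm38.p6).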

Additional observations from a re-analysis of the deposited data

How the results depend on the processing

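The falls of Dhcr7 and Fdps kept their sign under every alternative. In knockout spleen the 2 members called after LPS were 1 with the mean of all probe sets or the 2 groups alone, 0 without the 4 arrays highest in liver transcripts, and 1 to 2 leaving out each array. The 4 other enzymes were 0 (1 median), 1 (quantile), 2 (cyclic loess), 2 with values under 20 set to 20, 2 without the 2 erythroid-high arrays, 1 with the 2 groups alone, 0 without the 4 liver-high arrays, 2 without wild-type controls 2 and 3, and 1 to 4 leaving out each array. In wild-type spleen no member was called under any alternative, and 1 enzyme (Lbr) was called with quantile normalization, array weights, the mean of probe sets or without the 3 pancreas-high arrays, and 0 to 1 were leaving out each array. In the averaged response the 2 members were 1 (1 median, quantile, trend with robust prior, floor of 20, erythroid covariate, mean of probe sets, without 2 erythroid-high or 4 liver-high arrays) and 1 to 2 leaving out each array; the 3 enzymes were 1 (1 median, without 4 liver-high arrays, without wild-type controls 2 and 3), 5 (without 3 pancreas-high arrays) and 2 to 4. Array weights called 1 member between genotypes after LPS; leaving out each array gave 0 there, in controls and for the difference of responses. Causes were not tested. Counts over all genes ran from 153 to 2504 in knockout (1889 as reported) and from 230 to 1890 in wild-type spleen (1002), and the share of calls that were rises moved from 36.3% to 55.1% in knockout, from 48.6% to 59.5% in wild-type spleen and from 37.3% to 54.4% in the average after a shift to 1 median. Settings without the pancreas-high, liver-high or both wild-type control arrays were chosen after seeing the data. In that order, they leave only 1 knockout control, 1 knockout LPS and 1 wild-type control array.

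With the replicate number as a replicate block, 2 other enzymes were called in knockout spleen instead of 4, and both members stayed called there. The labels do not say whether equal numbers pair mice. After group means were taken off, 6 of 18 same-number pairs of arrays correlated above 0.1 (median 0.06). Among pairs with other numbers 13 of 36 did (median 0.02). Tissue transcripts also differ between these arrays, so the correlations cannot decide whether mice were paired.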

Other observations

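Star, which carries cholesterol into mitochondria for steroid synthesis and was listed here as a marker of steroid-producing cells, fell after LPS in both genotypes. It read 69, 84 and 74 in knockout LPS against 263, 327 and 357 in knockout control, and 62, 52 and 65 in wild-type LPS against 352, 300 and 200 in wild-type control spleen, with no overlap. The log2 differences were -2.05 ± 0.22 (limma adjusted p = 0.000304) and -2.22 ± 0.22 (limma adjusted p = 0.000321). The other 4 measured genes of that list did not pass in either genotype. Fabp4, a lipid chaperone of adipocytes and macrophages, was the 1 called gene of 5 measured adipocyte markers, higher after LPS in knockout spleen (1.80 ± 0.33, limma adjusted p = 0.00511) and at 0.87 ± 0.33 in wild-type spleen (limma adjusted p = 0.164); the difference of responses was not called.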
